A study of Mus musculus with 26 samples.

Results

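The genes described here are 37 that encode hydrolases of the lysosome, proteins of its membrane and 3 other proteins found in lysosomes. They were chosen by symbol and make up 37 of the 39017 genes in the deposited count tables. By role they comprise 11 proteases, 5 lipid hydrolases, 9 glycosidases, 2 sulfatases, 7 membrane proteins and 3 others. The 3 others, Psap, Grn and Npc2, are called cofactors here as a label only, since they share no single role. Lysosomes are acidic compartments that break down proteins, lipids, glycans and glycogen delivered by endocytosis, phagocytosis and autophagy, and pass the products back to the cytosol. In adipose tissue they are known to be abundant in macrophages, which take up lipid and dying adipocytes, while in adipocytes they take part in autophagy and in the turnover of lipid droplets. Inherited loss of single hydrolases or membrane proteins of this group causes lysosomal storage diseases.

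The study asked how visceral white adipose tissue (WAT) of mice changes with obesity and after weight loss. Male C57BL/6J mice entered a feeding period of 12 weeks at an age of 9 to 10 weeks. Lean mice ate a low fat diet with 10% fat throughout (LFD), obese mice a high fat diet with 60% fat throughout (HFD), and switched mice the high fat diet for 9 weeks and then the low fat diet for 3 weeks (SW). Collagenase was used to release the cells of the epididymal depot, floating adipocytes were parted from pelleted stromal vascular cells (SVCs), and red blood cells in the pellet were lysed. RNA-seq counts were available for 15 libraries with a diet in the column name, which were 3 LFD, 3 HFD and 3 SW libraries of adipocytes and 1 LFD, 2 HFD and 3 SW libraries of SVCs. The labels list 3 libraries for each group of SVCs as well, and 3 deposited SVC columns whose names give no labelled diet were not used. Whether they hold the missing LFD and HFD libraries cannot be told from the labels. Libraries are called here by diet and by the number that the deposited column carries, and values of single libraries are listed in the order LFD-404, LFD-405, LFD-406, HFD-401, HFD-402, HFD-403, SW-407, SW-408 and SW-409 for adipocytes and LFD-236, HFD-212, HFD-411, SW-412, SW-413 and SW-414 for SVCs. The labels give replicate numbers and no animal numbers, so the p-values measure the spread between these libraries, on the reading that each is a separate preparation, and SE stands for the standard error of a log2 fold change.

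Total counts per library lay between 6142895 (LFD-404) and 23725647 (HFD-402) in adipocytes and between 5781902 (LFD-236) and 22195810 (SW-413) in SVCs. At these totals, 3 counts correspond to between 0.126 and 0.519 CPM (counts scaled to library size). All 37 genes passed the filter on low counts in both fractions. The fraction labels were checked with 11 adipocyte markers, all of which were higher in adipocytes than in SVCs in both HFD and SW mice, with log2 fold changes of 2.19 to 5.84 in HFD and 2.09 to 6.14 in SW mice. Macrophage transcripts were present in the adipocyte fraction as well, where all 12 macrophage markers were detected in each of the 9 libraries.

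3 libraries stood apart from others of the same diet and fraction. The SVC library HFD-212 held 6.34% mitochondrial and 0.287% hemoglobin counts, against 33.5% and 3.09% in the other HFD library of SVCs, HFD-411. Their scaling factors were 1.32 and 0.814, against 0.902 to 1.09 in the other SVC libraries. The differences between these 2 libraries were 376 times those of counting error (chi-squared per degree of freedom), against 25.5 to 59.9 between pairs of SW libraries of SVCs. In adipocytes SW-407 had a scaling factor of 0.842, against 0.984 to 1.09 in the other 8 libraries, and it differed from the other SW libraries by 80.4 and 89.5 times counting error, against 12.8 for SW-408 and SW-409.

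Most of the 37 genes were higher in adipocytes of obese mice than of lean mice. Of the 37, 31 were higher in HFD than in LFD mice, against 26.5% of the 14461 genes tested, and 1 was lower, against 25.0% (edgeR quasi-likelihood test, adjusted p below 0.05 over all genes tested). The median log2 fold change was 1.45 over the 37 genes and -0.03 over all genes tested. Among the 31 that rose, the log2 fold change ran from 0.31 to 3.96, with a median of 1.73. In 33 of the 37 genes all 3 HFD libraries lay above all 3 LFD libraries, which held for 32.1% of the genes tested. The 37 genes together took 1.08% to 1.27% of all counts in LFD, 3.22% to 3.85% in HFD and 2.56% to 2.80% in SW adipocyte libraries.

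Macrophage markers moved with these genes. In HFD against LFD adipocytes 12 of 12 macrophage markers were higher, with a median log2 fold change of 3.19 and the largest rises in Adgre1 (4.49), Trem2 (4.40) and Itgax (4.37). Their summed level was 1066, 1017 and 621 CPM in the LFD libraries, 8869, 7592 and 8897 CPM in the HFD libraries and 8136, 5788 and 5513 CPM in the SW libraries. Lyz2 was the most abundant of them in all 9 libraries, and none was at 0. The pan-leukocyte marker Ptprc rose as well, with a log2 fold change of 3.08. The part of the macrophage markers in the rise of the lysosomal genes was not tested. In bulk samples such as these, fewer cells of a type and less RNA per cell cannot be told apart.

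**Figure D1:**
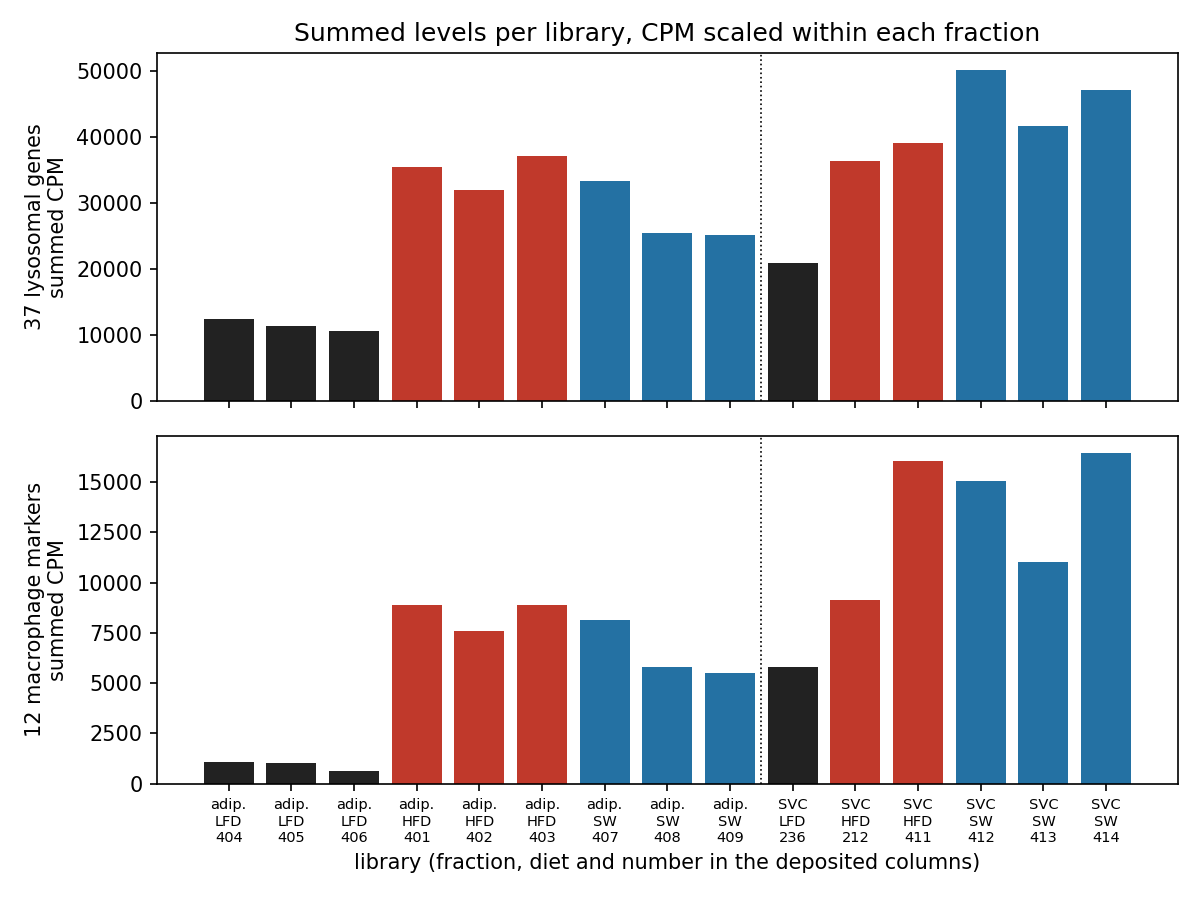
Summed level of the 37 lysosomal genes (top) and of 12 macrophage markers (bottom) in each library, in CPM scaled within each fraction, with LFD in black, HFD in red and SW in blue. In adipocytes both sums are lowest in the 3 LFD libraries, while in SVCs the lysosomal sum on this scale is highest in the 3 SW libraries. As a share of all counts HFD-212 (4.79%) lay above SW-413 (4.54%) and SW-414 (4.25%).

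Among the proteases, 10 of 11 rose in HFD adipocytes. Cathepsin S (Ctss, ENSMUSG00000038642), a cysteine protease that trims the invariant chain in antigen-presenting cells, had 145, 104 and 59.2 CPM in the LFD libraries, 1335, 1109 and 1289 in the HFD libraries and 1428, 1159 and 893 in the SW libraries. All HFD and SW libraries were above all LFD libraries, and the HFD and SW ranges overlapped. Its log2 fold change was 3.60 (SE 0.33, adjusted p = 2.4e-05) in HFD and 3.50 (SE 0.32, adjusted p = 8.6e-05) in SW against LFD mice, or 12.1-fold and 11.3-fold by group means. Legumain (Lgmn, ENSMUSG00000021190), an asparaginyl endopeptidase that processes other cathepsins, had 145, 119 and 82.4 CPM in LFD, 841, 696 and 854 in HFD and 795, 592 and 544 in SW libraries. Here too the HFD and SW libraries overlapped and lay above the LFD libraries, and the rise in HFD mice was 2.79 (SE 0.24, adjusted p = 1.9e-05) on the log2 scale.

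Other proteases rose by less than Ctss and Lgmn. Cathepsin B (Ctsb), a cysteine protease, had 2132, 1918 and 1896 CPM in LFD, 7160.1, 6460.1 and 7797 in HFD and 5891, 4804 and 4879 in SW adipocytes, so that the diets did not overlap and SW lay between. Cathepsin D (Ctsd), the main aspartic protease of lysosomes, had 2170.0, 1989 and 1820.2 CPM in LFD, 5271, 5275 and 5844 in HFD and 6744, 4016 and 4273 in SW adipocytes. For Ctsd the library SW-407 was the highest of all 9, and the other SW libraries lay below those of HFD mice. The log2 fold changes in HFD mice were 1.85 for Ctsb and 1.45 for Ctsd. Close to these were Ctsa, a serine carboxypeptidase that also holds a complex with Glb1 and Neu1 together (1.84), the aminopeptidase Ctsh (1.84), Ctsl (1.54), the tripeptidyl peptidase Tpp1 (1.45), the carboxypeptidase Ctsz (1.40) and Ctsc, which activates serine proteases of granules (1.31). Ctsf was the only protease that did not pass, with 54.4, 66.3 and 74.1 CPM in LFD and 50.7, 56.8 and 49.0 in HFD libraries and a log2 fold change of -0.32 (SE 0.13, adjusted p = 0.0666). It passed as lower without the library LFD-404 or with upper-quartile scaling, and its adjusted p ran from 0.0211 to 0.243 over 17 alternatives.

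The lipid hydrolases held both the largest rise and the only fall. Lysosomal acid lipase (Lipa, ENSMUSG00000024781), which releases cholesterol and fatty acids from cholesteryl esters and triglycerides, had 83.9, 51.8 and 42.3 CPM in LFD, 1012, 758 and 992 in HFD and 375, 453 and 389.7 in SW adipocytes. The groups did not overlap, and SW lay between LFD and HFD. Its rise in HFD mice was 3.96 (SE 0.27, adjusted p = 7.4e-06) on the log2 scale, a 15.5-fold difference of means. Acid ceramidase (Asah1, ENSMUSG00000031591), which splits ceramide, had 72.5, 56.3 and 61.0 CPM in LFD, 303, 233 and 269 in HFD and 118, 161 and 139 in SW libraries. These groups were again apart, with a log2 fold change of 2.09 (SE 0.17, adjusted p = 1.3e-05) in HFD mice. Galactosylceramidase (Galc) and the thioesterase Ppt1, which removes palmitate from proteins, rose by 1.78 and 0.86.

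Acid sphingomyelinase (Smpd1, ENSMUSG00000037049), which turns sphingomyelin into ceramide, went the other way. It had 86.4, 91.4 and 93.9 CPM in LFD, 50.4, 71.8 and 54.8 in HFD and 70.9, 57.4 and 80.1 in SW adipocytes. All 3 LFD libraries lay above the 6 others, and HFD and SW overlapped. The log2 fold change was -0.62 (SE 0.16, adjusted p = 0.00896) in HFD against LFD mice, and -0.38 (SE 0.16, adjusted p = 0.129) in SW against LFD mice, which did not pass.

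Of the 9 glycosidases, 8 were higher in HFD adipocytes. Alpha-galactosidase A (Gla, ENSMUSG00000031266), which removes terminal galactose from glycolipids, had 10.6, 7.99 and 6.46 CPM in LFD, 63.7, 55.4 and 66.4 in HFD and 53.9, 43.2 and 39.3 in SW libraries. Every HFD and SW library lay above every LFD library, with a log2 fold change of 2.90 (SE 0.19, adjusted p = 6.3e-06) in HFD mice. Beta-glucuronidase (Gusb) had 95.6, 81.5 and 80.8 CPM in LFD, 407.9, 338.2 and 385.7 in HFD and 358, 247 and 264 in SW libraries and rose by 2.13 in HFD mice. Alpha-mannosidase (Man2b1) had 119, 99.4 and 88.1 CPM in LFD, 422.7, 339.5 and 408.9 in HFD and 248, 241 and 241 in SW libraries and rose by 1.94. The HFD and SW libraries overlapped for Gusb and were apart for Man2b1. Smaller rises were found for Hexa, the alpha chain of beta-hexosaminidase (1.73), beta-mannosidase Manba (1.06), beta-galactosidase Glb1 (0.87), Naglu, which acts on heparan sulfate (0.48), and the sialidase Neu1 (0.31). The call of Neu1 was lost with upper-quartile scaling and without LFD-404, LFD-405, LFD-406, HFD-401 or HFD-403, with an adjusted p of 0.0141 to 0.12 over 17 alternatives.

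Acid alpha-glucosidase (Gaa, ENSMUSG00000025579), which degrades glycogen, was the glycosidase that did not pass. It had 91.5, 83.8 and 95.1 CPM in LFD, 98.3, 97.3 and 102 in HFD and 94.5, 94.1 and 105 in SW adipocytes, a log2 fold change of 0.14 (SE 0.10, adjusted p = 0.279) in HFD mice. Its HFD libraries lay above its LFD libraries by a narrow margin, and the SW libraries overlapped both. Of the 2 sulfatases, arylsulfatase A (Arsa), which acts on sulfatide, had 53.9, 51.4 and 52.1 CPM in LFD and 63.7, 54.3 and 56.3 in HFD libraries and did not pass (0.15). Arylsulfatase B (Arsb, ENSMUSG00000042082), which acts on dermatan and chondroitin sulfate, had 19.8, 10.8 and 12.7 CPM in LFD, 55.7, 52.1 and 66.3 in HFD and 12.7, 19.0 and 20.7 in SW libraries. Its HFD libraries lay above all others, and its SW libraries overlapped those of lean mice. The rise in HFD mice was 2.04 (SE 0.24, adjusted p = 1.2e-04) on the log2 scale.

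Of the 7 membrane proteins, 6 rose in HFD adipocytes. Laptm5 (ENSMUSG00000028581), a lysosomal membrane protein best known in blood cells, had 112, 102 and 62.5 CPM in LFD, 649.8, 519 and 735 in HFD and 651, 487 and 456 in SW libraries. The HFD and SW libraries overlapped and lay above the LFD libraries, with a log2 fold change of 2.78 (SE 0.25, adjusted p = 2.6e-05) in HFD mice. Npc1 (ENSMUSG00000024413), which exports cholesterol from lysosomes, had 25.2, 21.3 and 20.2 CPM in LFD, 106, 69.6 and 92.1 in HFD and 46.3, 51.0 and 47.6 in SW libraries. The 3 diets were apart for Npc1, and its rise in HFD mice was 2.01 (SE 0.16, adjusted p = 1.4e-05). The structural proteins Lamp1 and Lamp2 rose by 1.00 and 1.04, Scarb2, which carries glucocerebrosidase to lysosomes, by 0.99 and Cln3 by 1.43. The cation channel Mcoln1 had mean levels (± SD) of 39.1 ± 2.22 CPM in LFD, 37.2 ± 1.34 in HFD and 36.5 ± 2.53 in SW libraries, with all groups overlapping and a log2 fold change of -0.07 (SE 0.10, adjusted p = 0.58) in HFD mice.

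Among the cofactors, prosaposin (Psap), the precursor of the saposins that present sphingolipids to their hydrolases, had 2489, 2218 and 2027 CPM in LFD, 8299, 6575 and 8457 in HFD and 7219.9, 5827 and 5229 in SW adipocytes. Progranulin (Grn), which is cut into granulins in lysosomes, had 362, 316 and 294 CPM in LFD, 1091, 905 and 1117 in HFD and 1060.0, 757 and 790.3 in SW adipocytes. In both genes every LFD library was below every other library, and the rises in HFD mice were 1.79 and 1.68. Npc2, which hands cholesterol to Npc1, had 1108, 1172 and 1093 CPM in LFD, 927, 1449 and 1151 in HFD and 1649.7, 1142 and 1441 in SW libraries. Its groups overlapped, and its log2 fold change of 0.07 (SE 0.20, adjusted p = 0.809) did not pass. Psap took the largest share of their counts in each of the 15 libraries, 19.0% to 31.1% of the summed CPM, and the 3 most abundant genes of a library took 49.2% to 59.8%.

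Levels of different genes were compared as CPM per kilobase of the longest transcript. On that scale the mean level in LFD adipocytes was 937 for Ctsd, 845 for Psap and 418 for Ctsb, the 3 highest. In HFD adipocytes the same genes led, with 2927 for Psap, 2569 for Ctsd and 1505 for Ctsb. The order depends on the transcript length used. With the median length, Ctsb led in LFD, HFD and SW adipocytes with 1562, 5626 and 4091 CPM per kilobase, and Ctsl was next in LFD and HFD mice with 1043 and 3033.

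**Figure D2:**
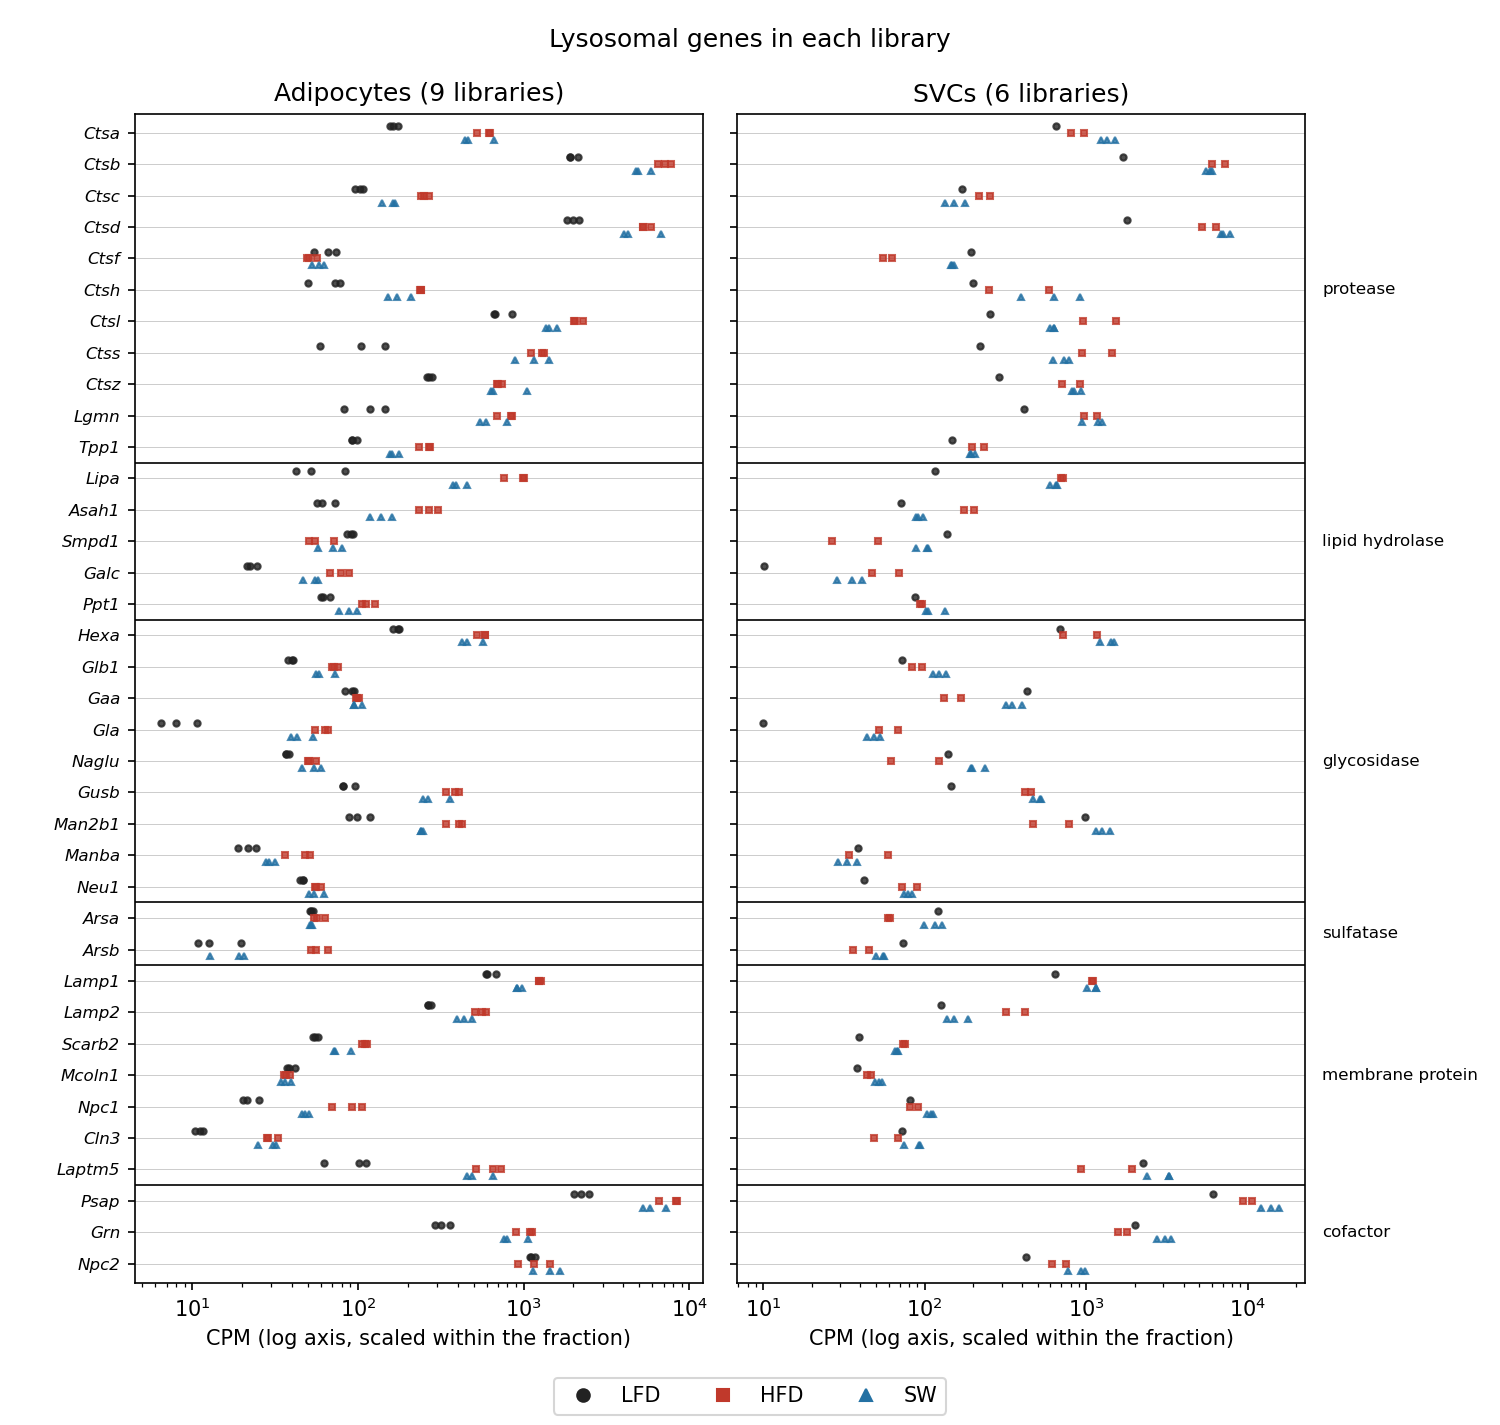
Level of each of the 37 genes in each library, in CPM on a log axis, for adipocytes (left) and SVCs (right), with genes grouped by role and 1 point per library. In adipocytes the LFD points (black circles) lie left of all HFD points (red squares) for 33 of the 37 genes, and SW points (blue triangles) lie between for 16.

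SW mice had 9 weeks of high fat and 3 weeks of low fat diet, and HFD mice 12 weeks of high fat diet. No group was sampled at the time of the switch. A lower level in SW mice can thus be a fall after it or a further rise in HFD mice, which cannot be told apart. A fall, rise or change from HFD to SW mice means here a difference between these groups. The comparison of SW with LFD mice asks which differences from lean mice were present after the switch. Both comparisons share libraries with the comparison of HFD and LFD mice. Between SW and HFD adipocytes 13 of the 37 genes were lower, against 15.9% of the genes tested, and 0 were higher, against 15.6%. The median log2 fold change was -0.33 over the 37 and 0.01 over all genes. No gene was higher at an unadjusted p below 0.05 in edgeR either, and limma-voom and DESeq2 also called 0 higher. Between SW and LFD adipocytes 28 of the 37 were higher, against 10.9% of the genes tested, and 0 were lower, against 6.18%. In edgeR 1 gene, Smpd1, was lower at an unadjusted p below 0.05, and limma-voom and DESeq2 called 0 lower. The median log2 fold change from LFD to SW mice was 1.13 over the 37 and 0.00 over all genes. In 30 genes all SW libraries lay above all LFD libraries (19.1% of the genes tested), in 18 all lay below all HFD libraries (25.2%), and in 16 they lay between the LFD and the HFD libraries (7.48%). With HFD and SW mice pooled against LFD mice, 31 genes were higher (20.7% of the genes tested) and 1, Smpd1, was lower (19.4%), though Smpd1 did not pass without LFD-405 or LFD-406.

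The falls from HFD to SW mice were counted by role, where each role holds few genes. They comprised 4 of 5 lipid hydrolases, 3 of 11 proteases, 3 of 7 membrane proteins, 2 of 9 glycosidases, 1 of 2 sulfatases and 0 of 3 cofactors. Over all genes tested 15.9% were lower. The cofactors Psap (-0.35), Grn (-0.26) and Npc2 (0.26) did not pass with all libraries or under any of 17 alternatives. Psap and Grn lay near the median of the 37 genes (-0.33). The largest fall was that of Arsb, -1.72 (SE 0.23, adjusted p = 0.00344) on the log2 scale, and its SW level was 1.21 times the LFD level. Against lean mice Arsb had a log2 fold change of 0.32 (SE 0.24, adjusted p = 0.411) and did not pass. Lipa was lower by 1.18 (SE 0.24, adjusted p = 0.00882) and was 6.84 times the LFD level, a log2 fold change of 2.78 (SE 0.26, adjusted p = 8.6e-05) against lean mice. Asah1 fell by 0.95 and Npc1 by 0.88, to 2.20 and 2.17 times the LFD level. The other genes that fell were Ctsc (-0.70), Man2b1 (-0.68), Tpp1 (-0.64), Manba (-0.61), Galc (-0.56), Ctsl (-0.54), Scarb2 (-0.50), Lamp1 (-0.41) and Ppt1 (-0.38).

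Single libraries decided some of these calls. The 13 falls were 7 without HFD-403 and 17 without SW-407. Arsb, Lipa, Asah1, Npc1, Ctsc, Man2b1 and Tpp1 passed under all 17 alternatives. Galc and Scarb2 did not pass without HFD-403, Manba without HFD-401 or HFD-403, and Ctsl without LFD-405, HFD-401, HFD-403, SW-408 or SW-409. Lamp1 did not pass with any single library left out, and Ppt1 passed only when the library left out was SW-407. Over all 17 alternatives the adjusted p ran from 0.00164 to 0.0521 for Galc, 0.00101 to 0.0533 for Scarb2, 0.00287 to 0.0635 for Manba, 6.3e-04 to 0.117 for Ctsl, 2.6e-05 to 0.118 for Lamp1 and 0.0236 to 0.137 for Ppt1. Without SW-407, Ctsb, Ctsh, Gla, Glb1 and Gusb also passed as lower, and Ppt1 and the other falls except Lamp1 held.

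Other genes did not pass between SW and HFD mice. The values of Ctss, Cln3 and Ctsz against HFD mice were -0.10 (SE 0.29, adjusted p = 0.814), -0.03 (SE 0.13, adjusted p = 0.891) and 0.13 (SE 0.20, adjusted p = 0.626), none of which passed. Against LFD mice the same genes rose by 3.50, 1.40 and 1.53. Cln3 had 11.1, 11.6 and 10.4 CPM in LFD, 28.5, 28.1 and 32.7 in HFD and 32.1, 30.8 and 25.0 in SW libraries, with HFD and SW overlapping and both above LFD. Ctsz had 691, 699 and 744 CPM in HFD and 1050.3, 638 and 653 in SW libraries, and without SW-407 its value turned to -0.14, which did not pass either. Laptm5 and Lgmn rose by 2.53 and 2.48 from LFD to SW mice, against 2.78 and 2.79 from LFD to HFD mice. In Ctsz, Laptm5 and Lgmn SW-408 and SW-409 lay below all HFD libraries and SW-407 did not. Gla rose by 2.45 from LFD to SW mice, against 2.90 from LFD to HFD mice, and its SW libraries lay between those of LFD and HFD mice. Its value against HFD mice (-0.44) did not pass in edgeR with all libraries, and it passed as lower with DESeq2, with limma-voom, without a filter on low counts and without LFD-404 or SW-407. By role, 10 of 11 proteases, 6 of 7 membrane proteins, 4 of 5 lipid hydrolases, 6 of 9 glycosidases and 2 of 3 cofactors were higher in SW than in LFD mice, while the 2 sulfatases did not pass. The share over all genes tested was 10.9%. Of the 28 rises, those of Naglu, Scarb2, Lamp1 and Ppt1 depended on single libraries. Naglu did not pass without LFD-405, Scarb2 without LFD-405 or LFD-406, Lamp1 without LFD-405, LFD-406 or SW-409, and Ppt1 without LFD-404, LFD-405, HFD-403, SW-407 or SW-408. Their adjusted p ran from 0.00254 to 0.0583, 0.00205 to 0.0628, 2.8e-10 to 0.0736 and 0.00548 to 0.0886 over 17 alternatives.

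The macrophage markers were also compared between SW adipocytes and those of the other diets. Of the 12, 6 were lower in SW than in HFD mice, with a median of -0.64 over the list, and 10 were higher than in LFD mice, with a median of 2.62. The largest falls were those of Itgam (-1.59), Adgre1 (-1.22) and Mrc1 (-1.12). Chosen after their values were seen, C1qa (0.50) and Trem2 (0.27) did not pass against HFD mice. Both had their highest adipocyte value in SW-407. C1qa had 588.0, 570.2 and 604.0 CPM in HFD and 1271.6, 598.8 and 621.3 in SW libraries. Trem2 had 405.7, 429.3 and 490.0 CPM in HFD and 774.9, 402.6 and 425.0 in SW libraries. In SW-408 and SW-409 both genes thus lay within the HFD range or close to it. Cd163 (-0.18) and Mertk (-0.11), chosen in the same way, did not pass against LFD mice. Ptprc was lower than in HFD mice (-0.80) and higher than in LFD mice (2.28). The summed level of the 12 in SW-407 lay within the range of the HFD libraries. Their part in the falls of the lysosomal genes was not tested. Adipocyte markers moved in the opposite direction. In HFD mice 8 of 11 were lower than in LFD mice (median -1.19), with Cfd at -4.42, Adrb3 at -3.28 and Slc2a4 at -1.96, and in SW mice 6 of 11 were higher than in HFD mice (median 0.83). Their summed level was 32821, 44758 and 51430.1 CPM in LFD, 12441, 21094 and 16039 in HFD and 29528, 29131 and 28974 in SW libraries, with Fabp4 the most abundant and none at 0.

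Genes that work with the 37 were examined in lists. For comparison, 26.5% of all genes tested were higher and 25.0% lower in HFD than in LFD adipocytes, with a median of -0.03. In SW adipocytes 15.9% were lower than in HFD mice and 10.9% higher than in LFD mice. Of 37 other lysosomal genes 26 were higher and 1, the peptide transporter Abcb9, was lower in HFD than in LFD adipocytes, with a median log2 fold change of 0.59. The largest rises were those of Gpnmb, a glycoprotein of lysosomes and melanosomes (5.54), the collagen-degrading cathepsin Ctsk (3.36) and the phagosomal metal transporter Slc11a1 (2.86). In SW mice 9 of these 37 were lower than in HFD mice, and the largest falls that passed were those of Scpep1 (-0.61), Slc17a5 (-0.58) and Hgsnat (-0.52), and 18 were higher than in LFD mice. Of 11 genes that deliver enzymes to lysosomes, 7 were higher in HFD than in LFD mice (median 0.71). The mannose 6-phosphate receptor Igf2r rose by 1.72, the uncovering enzyme Nagpa by 1.01 and the retromer subunit Vps35 by 1.01. In SW mice 6 of the 11 were lower than in HFD mice, with Igf2r at -1.17, Vps35 at -0.70 and Gnptab, which makes the mannose 6-phosphate tag, at -0.54, and 1, Nagpa (0.74), was higher than in LFD mice.

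Of 6 inhibitors of cathepsins 4 passed the filter on low counts in adipocytes. The cystatin Cstb (1.42) and Serpinb6a (1.11), which is known to inhibit serine proteases such as cathepsin G, were higher in HFD than in LFD mice and the cystatin Cst6 was lower (-1.64). Cstb and Serpinb6a were also higher in SW than in LFD mice (1.53 and 1.15), and Cst6 rose from HFD to SW mice (1.28). Stfa2 was at 0 in all 9 adipocyte libraries. The proton pump subunits Atp6v1a and Atp6v0a1, which acidify lysosomes as parts of the V-ATPase, were higher in HFD than in LFD mice by 2.17 and 1.46 and higher in SW than in LFD mice by 1.39 and 1.07. From HFD to SW mice Atp6v1a was lower (-0.77) and Atp6v0a1 did not pass (-0.39).

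In SVCs the level of most of the 37 genes was lowest in the LFD library. LFD-236 is the only SVC column that names the low fat diet group, which allows no test, and its values are given beside the others. The 37 genes took 2.07% of counts in LFD-236, 4.79% and 3.18% in HFD-212 and HFD-411, and 4.80%, 4.54% and 4.25% in the libraries SW-412, SW-413 and SW-414. With mitochondrial counts left out, the shares were 2.16% in LFD-236, 5.11% and 4.78% in HFD-212 and HFD-411, and 5.09%, 4.82% and 4.70% in the SW libraries, so that HFD and SW overlapped. In 25 of the 37 genes LFD-236 lay below the other 5 libraries (25.5% of the 16319 genes tested), and in 4 it lay above them (22.3%). For example, the level of Lipa was 116 CPM in LFD-236, 722 and 694 CPM in HFD and 653, 595 and 664 CPM in SW SVCs, so that HFD and SW SVCs were close to each other and LFD-236 far below. Ctsb had 1698 CPM in LFD-236, 7219 and 6015 in HFD and 6012, 5502 and 5873 in SW SVCs, again with LFD-236 lowest. LFD-236 also differed from the other 5 SVC libraries in its share of hemoglobin counts (5.15%, against 0.287% to 3.57%) and in the summed levels of macrophage markers (5828 CPM, against 9112 to 16458), of mesothelial markers (821 CPM, against 12.8 to 148) and of fibroblast and progenitor markers (10604 CPM, against 5169.9 to 8847). The part of these differences in the values of the lysosomal genes was not tested.

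Between SW and HFD SVCs 4 of the 37 genes were higher, against 5.71% of the genes tested, and 2 were lower, against 11.7%. The median log2 fold change was 0.26 over the 37 and 0.03 over all genes. The 4 that were higher were Ctsf, Gaa, Arsa and Smpd1. Gaa had 433 CPM in LFD-236, 132 and 167 in HFD-212 and HFD-411, and 398, 348 and 318 in the SW libraries. Ctsf had 195 CPM in LFD-236, 55.3 and 62.4 in HFD and 148, 146 and 152 in SW SVCs. In both genes the 2 HFD libraries lay below all others. Arsa had 121 CPM in LFD-236, 59.2 and 61.3 in HFD and 129, 116 and 99.2 in SW SVCs, and Smpd1 137, 26.5 and 51.4 and 104, 87.8 and 104. The log2 fold changes were 1.25 (SE 0.24, adjusted p = 0.0377) for Gaa, 1.34 (SE 0.20, adjusted p = 0.0362) for Ctsf, 0.93 (SE 0.21, adjusted p = 0.0407) for Arsa and 1.34 (SE 0.32, adjusted p = 0.0436) for Smpd1. Lamp2 and Asah1 were lower, with 126 CPM of Lamp2 in LFD-236, 419 and 320.0 in HFD and 138, 153 and 185 in SW SVCs, and 71.4 CPM of Asah1 in LFD-236, 202 and 176 in HFD and 91.1, 98.0 and 87.7 in SW SVCs. For both the HFD libraries lay above all others, and the log2 fold changes were -1.22 and -1.04.

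These calls in SVCs rest on few libraries. Without SW-412, SW-413 or SW-414 none of the 37 passed in either direction (0 higher and 0 lower in each case), without HFD-212 only Ctsf passed (1 higher, 0 lower), and without HFD-411 10 were higher and 6 lower. The calls over all genes moved as well, from 932 higher and 1917 lower with all libraries to 0 and 0 without SW-412 or SW-413, 495 and 98 without SW-414, 275 and 228 without HFD-212, and 2772 and 3441 without HFD-411. With all libraries 8 of the 37 were higher and 6 lower at an unadjusted p below 0.05, DESeq2 called 9 higher and 4 lower, and limma-voom 4 and 2. On simulated counts of this SVC design DESeq2 called more unchanged genes than edgeR. There edgeR missed more of the changed genes than in the adipocyte design, and limma-voom more than edgeR. The simulated libraries shared 1 mean profile apart from the changed genes. They lacked the difference in composition between HFD-212 and HFD-411, so these error rates may not hold for the real libraries. The HFD libraries lay below both LFD-236 and the SW libraries in 10 genes, which were Ctsf, Gaa, Smpd1, Arsa, Man2b1, Naglu, Laptm5, Grn, Cln3 and Arsb (22.4% of the genes tested showed this order, which was chosen after the values were seen). Laptm5, for example, had 2240.1 CPM in LFD-236, 925 and 1922 in HFD-212 and HFD-411, and 3231, 2367 and 3273 in SW SVCs. Macrophage markers summed to 5828 CPM in LFD-236, 9112 and 16022 in HFD-212 and HFD-411 and 15023, 11036 and 16458 in the SW libraries, with none of the 12 at 0 and Lyz2 the most abundant by mean. Of the 12, 1 (Mrc1, -1.55) was lower in SW than in HFD SVCs, as was Ptprc (-2.55). Of 11 adipocyte markers 2, Slc2a4 (1.64) and Plin4 (1.15), were higher and 1, Fabp4 (-2.08), was lower, with 8 higher and 2 lower at an unadjusted p below 0.05 and a median of 1.15, and 1 of 6 fibroblast and progenitor markers, Ly6a (1.30), was higher. The part of all these markers in the values of the lysosomal genes was not tested.

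**Figure D3:**
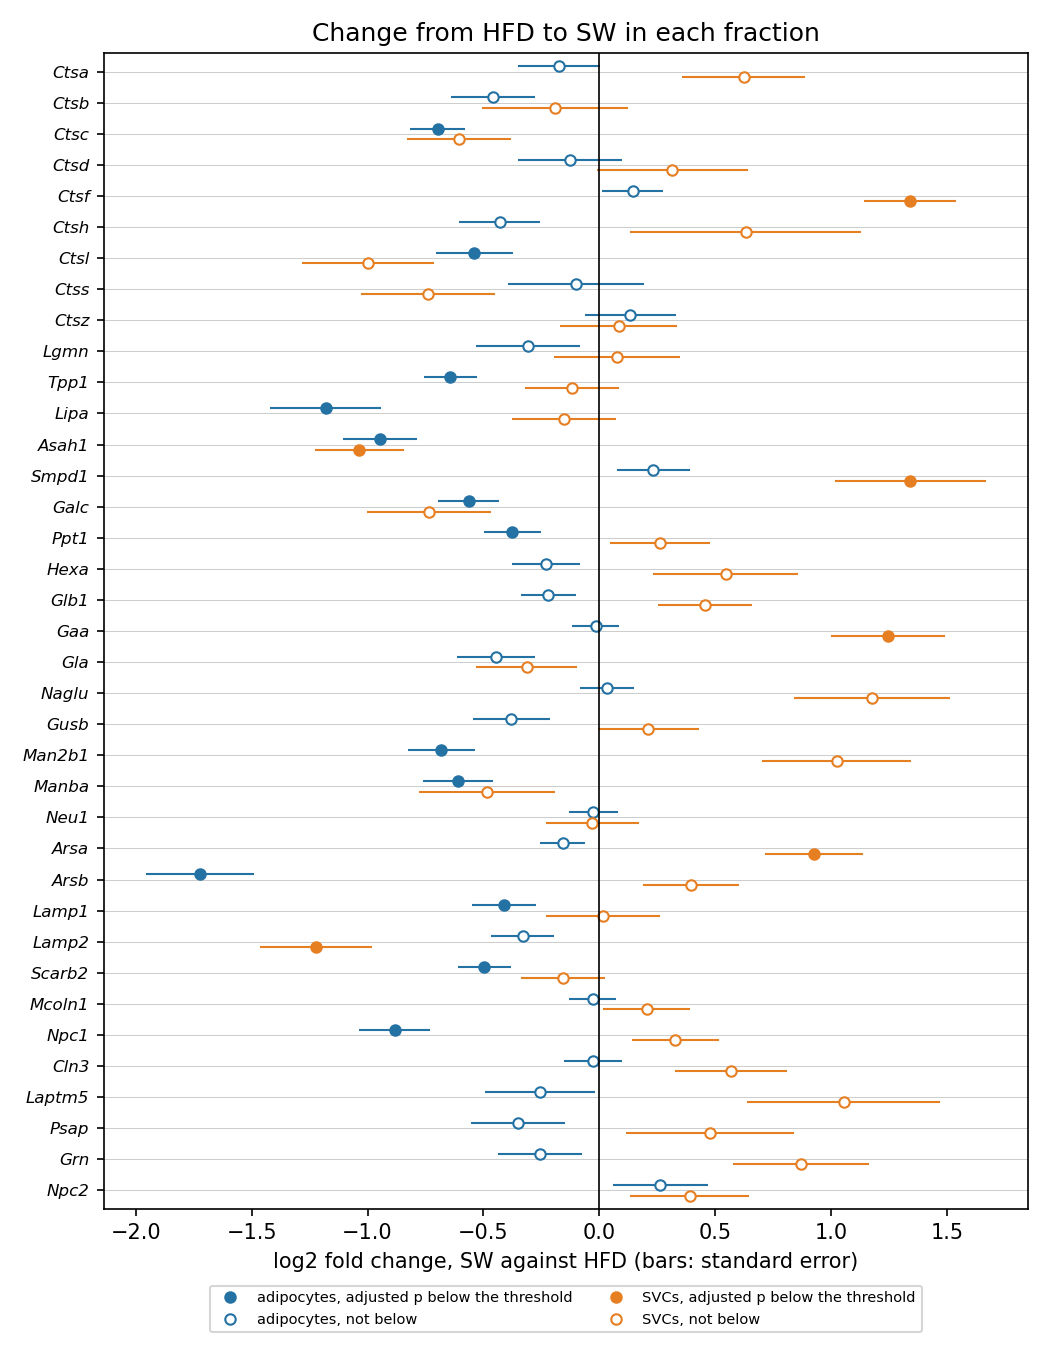
Log2 fold change from HFD to SW mice with its standard error for each of the 37 genes, in adipocytes (blue) and SVCs (orange), with filled points where the adjusted p was below 0.05. In adipocytes 13 genes passed, all lower in SW mice, and in SVCs 4 passed as higher (Ctsf, Gaa, Arsa and Smpd1) and 2 as lower (Lamp2 and Asah1).

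The change from HFD to SW mice differed between the fractions for some genes. In a test of the difference itself, 15 of the 37 changes were lower in adipocytes than in SVCs, against 11.4% of the 17441 genes tested, and 1, that of Lamp2, was higher, against 15.7%. The median difference was -0.68 over the 37 and 0.04 over all genes. Of 12 macrophage markers 3 were lower and 0 higher in the same test, with a median of -0.86. At an unadjusted p below 0.05 the counts were 6 and 0 in edgeR, the only tool run on the markers. Of 6 fibroblast and progenitor markers 1 was lower and 0 higher (4 and 0 unadjusted), with a median of -0.97. Ptprc was higher (1.61), 1 of 3 neutrophil markers was lower, and of 11 adipocyte markers 1 was higher and 1 lower. No T cell, B cell, endothelial, mesothelial or erythroid marker passed. The part of these markers in the differences was not tested. This test used all 15 libraries scaled together, so its values differ slightly from the subtraction of the values fitted within each fraction. For Arsb the values were -1.72 in adipocytes and 0.40 in SVCs, a difference of -2.22 (SE 0.35, adjusted p = 0.00165). For Man2b1 they were -0.68 and 1.02, a difference of -1.79 (SE 0.33, adjusted p = 0.00276), and for Npc1 -0.88 and 0.33, a difference of -1.31 (SE 0.25, adjusted p = 0.00303). The count of 15 was 9 without the SVC library HFD-212, SW-412 or SW-414 and 18 without HFD-411. The difference of Lamp2 did not pass without a filter on low counts, without the adipocyte libraries HFD-402, HFD-403 or SW-408 or the SVC libraries HFD-212 or SW-412. Arsb, Man2b1, Npc1, Gaa, Ctsf, Naglu, Grn and Arsa passed under all 22 alternatives.

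Levels in the fractions were compared after scaling all 15 libraries together. In SW mice 30 of the 37 genes were lower in adipocytes than in SVCs, against 35.6% of the genes tested, and 2, Lamp2 (1.06) and Ctsl (0.81), were higher, against 32.8%. The median log2 fold change was -0.94 over the 37 and -0.09 over all genes. The largest differences were those of Laptm5 (-2.90), Man2b1 (-2.80) and Naglu (-2.39). The 30 were 28 without the adipocyte library SW-407 and 25 to 30 with each library left out in turn. In HFD mice 14 were lower in adipocytes, against 16.2% of the genes tested, and 0 were higher, against 12.9%, with medians of -0.37 over the 37 and -0.08 over all genes. There 1 gene was higher at an unadjusted p below 0.05 in edgeR, DESeq2 called 1 higher and limma-voom 0. The 14 were 2 with only the HFD libraries of both fractions fitted and 12 to 18 under the other tools, scalings and filters. They were 16 without HFD-212, where Ctsl passed as higher, and 5 without HFD-411, where Smpd1 passed as higher. In HFD mice the values of Lipa, Asah1 and Tpp1 were 0.06 (SE 0.25, adjusted p = 0.875), 0.19 (SE 0.18, adjusted p = 0.432) and -0.04 (SE 0.14, adjusted p = 0.873), and did not pass. In SW mice Lipa (-1.07) and Tpp1 (-0.67) were lower in adipocytes, while Asah1 (0.17) did not pass. Beside these, 10 of 12 macrophage markers were lower in adipocytes than in SVCs in SW mice (median -1.45) and 3 of 12 in HFD mice (median -0.79). In SW mice 5 of 6 fibroblast and progenitor (median -1.42), 4 of 4 mesothelial and 4 of 4 erythroid markers were lower as well. So were 4 of 6 T cell and 3 of 4 B cell markers, while 4 of 5 endothelial markers were higher. In HFD mice the lower ones were 2 of 6, 3 of 4, 4 of 4, 5 of 6 and 4 of 4 in the same order, and 3 of 5 endothelial markers were higher. Ptprc was higher in adipocytes in SW mice (1.54) and did not pass in HFD mice (-0.08), while all 11 adipocyte markers were higher in both.

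Markers of other cells were measured in the same adipocyte libraries. From LFD to HFD mice 3 of 6 fibroblast and progenitor markers were higher, with Col3a1 at 2.27, Col1a1 at 2.04 and Pdgfra at 1.33, and 1, Ly6a, was lower (-0.73). Their summed level was 2255, 2190.4 and 1591 CPM in LFD, 5711, 4666 and 6169.9 in HFD and 3025, 2713 and 2694 in SW libraries, with Col3a1 the most abundant by mean. Of 5 endothelial markers 3 were lower in HFD mice, led by Cldn5 (-1.84), as were 3 of 4 mesothelial markers, led by Krt19 (-3.67), and 4 of 4 erythroid markers, led by Hba-a1 (-2.41). The erythroid markers were higher in SW than in HFD mice (4 of 4). Over the same step 2 of 4 B cell markers (median 1.13) and 1 of 5 endothelial markers were higher. Of 6 fibroblast and progenitor markers 2 were lower and 1 higher. In SW against LFD mice 3 of 5 endothelial, 2 of 4 mesothelial and 2 of 4 erythroid markers were lower. There 1 of 6 fibroblast and progenitor markers was higher. Of 3 neutrophil markers tested, Csf3r was higher in HFD than in LFD mice (1.61), and Ly6g was at 0 in all 9 adipocyte libraries. Of 5 T cell markers tested 0 passed in HFD against LFD mice, also at an unadjusted p below 0.05 in edgeR, the only tool run on them. Cd3d had 0.827, 0.584 and 1.43 CPM in HFD and 11.7, 3.42 and 1.14 in SW libraries, with the highest value in SW-407 and the others overlapping, and passed as higher in SW mice (2.46). Without SW-407 it was not tested. Summed T cell markers lay between 3.03 and 31.9 CPM in adipocyte libraries. The part of these cell types in the levels of the lysosomal genes was not tested.

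Promoters were searched on both strands for the core motif CACGTG, for its extension by 1 letter to TCACGTG, and for the palindrome TCACGTGA, forms that have been described at lysosomal genes. The 3 motifs are nested, so that a match to a longer one is also a match to the shorter. RefSeq windows of 250 bases before and 50 after the gene start (build GRCm38.p6) were available for 33 of the 37 genes and not for Ctsb, Ctsh, Npc1 and Asah1. CACGTG was in at least 1 window of 13 of the 33 (39.4%) and of 2187 of 27025 genes (8.09%), TCACGTG in 11 (33.3%) and 1160 genes (4.29%), and TCACGTGA in 5 (15.2%) and 304 genes (1.12%). The 5 were Ctsa, Ctsd, Gla, Cln3 and Mcoln1, of which the first 4 rose in HFD adipocytes and Mcoln1 did not pass. Of the 11 genes with TCACGTG 8 were higher in HFD than in LFD adipocytes, with a median log2 fold change of 1.00, and of the 22 without it 19 were higher, with a median of 1.49. Of the 20 genes whose windows held none of the 3 motifs, Lipa, Ctss, Laptm5 and Arsb are named here after their values were seen. Gla and Lgmn, which rose by more than Arsb in HFD adipocytes, had a window with TCACGTGA and with TCACGTG, respectively. The part of the motifs in the rises was not tested. Binding to these windows was not measured.

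The following stretches of 82 bases show the motif in the 5 genes with the longest form and in Lamp1, whose window held 4 copies of TCACGTG. Each is written 5′ to 3′ on the strand of the gene, with matches to any of the 3 motifs in capitals. The windows with the match are chr2:164833523-164833822 (plus strand) for Ctsa, chr7:142387778-142388077 (minus) for Ctsd, chrX:134600956-134601255 (minus) for Gla, chr7:126583187-126583486 (minus) for Cln3, chr8:3500269-3500568 (plus) for Mcoln1 and chr8:13158911-13159210 (plus) for Lamp1.
Ctsa: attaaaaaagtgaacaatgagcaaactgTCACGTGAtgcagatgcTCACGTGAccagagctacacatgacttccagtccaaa
Ctsd: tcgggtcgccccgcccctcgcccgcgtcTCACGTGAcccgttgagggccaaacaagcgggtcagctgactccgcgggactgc
Gla: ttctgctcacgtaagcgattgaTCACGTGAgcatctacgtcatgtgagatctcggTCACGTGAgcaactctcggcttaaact
Cln3: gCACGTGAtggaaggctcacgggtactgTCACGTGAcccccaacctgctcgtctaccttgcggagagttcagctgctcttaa
Mcoln1: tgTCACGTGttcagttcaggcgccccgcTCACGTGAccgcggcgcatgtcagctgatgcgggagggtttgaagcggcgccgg
Lamp1: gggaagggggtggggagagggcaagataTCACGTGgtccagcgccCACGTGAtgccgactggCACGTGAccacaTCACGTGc
Counted from the start that the window covers, the first copy of the longest motif began at position -13 in Ctsa, -99 in Ctsd, -228 in Gla, -122 in Cln3, -46 in Mcoln1 and -62 in Lamp1. Ctsa and Cln3 each had another window at a different start, which held none of the 3 motifs.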

How the data were processed

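Gene counts were deposited as 1 table for adipocytes and 1 for SVCs. Per the submitters' processing notes, the authors used Bowtie2, RSEM and mm9, and the deposited values are estimated counts, not normalized. Of 18 columns, 3 SVC columns whose names give no labelled diet were not used. Some labelled libraries have a paired-end and a single-end run, and how these were merged is not stated. Run types were uneven across diets. In SVCs all 3 SW libraries had both types, while HFD replicates 1 and 3 had a single-end run only. In adipocytes all 3 SW libraries had a paired-end run only, while LFD replicates 2 and 3 had both. Run type and diet can therefore not be fully told apart. Counts were rounded and genes with low counts removed (filterByExpr of edgeR, minimum count 10). CPM carry TMM factors, within each fraction unless stated. Groups were compared with the quasi-likelihood test of edgeR 4.0.16 in 1 fit per fraction (all 15 libraries for comparisons between fractions), Benjamini-Hochberg adjusted over all genes tested, with a threshold of 0.05. Alternatives were DESeq2 1.42.0, limma-voom (limma 3.58.1), other scalings and filters, fewer groups and each library left out, run in R 4.3.3 and Python 3.11.15. The tests were tried on simulated counts, where edgeR recovered fewer changed genes in the SVC design than the share first asked of every design, and for SVCs that demand was dropped. Transcript lengths came from GENCODE M21 and promoter windows from RefSeq. All 37 members were named, and genes named from lists were taken from the 3 largest rises and falls that passed in a comparison, the most abundant markers and genes at 0. The lists were other lysosomal genes, delivery of enzymes, inhibitors of cathepsins, V-ATPase and markers of cell types. The members and lists were chosen with earlier results of these data known.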

Additional observations from a re-analysis of the deposited data

Results flagged for a closer look

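The change from HFD to SW mice differed between adipocytes and SVCs for 16 of the 37 genes, by the test of the difference (adipocyte change minus SVC change, log2, edgeR adjusted p below 0.05). The change was lower in adipocytes for 15 of the 37 and higher for 1, against 11.4% and 15.7% of the 17441 genes tested. Of 12 macrophage markers 3 were lower and 0 higher, with a median of -0.86. At an unadjusted p below 0.05 the counts were 6 and 0 in edgeR, the only tool run on the markers. Of 6 fibroblast and progenitor markers 1 was lower and 0 higher (4 and 0 unadjusted), with a median of -0.97. The pan-leukocyte marker Ptprc was higher (1.61), 1 of 3 neutrophil markers was lower, and of 11 adipocyte markers 1 was higher and 1 lower. The part of these markers was not tested. Among glycosidases and sulfatases the difference was -2.22 for Arsb, -1.79 for Man2b1, -1.36 for Gaa, -1.22 for Naglu, -1.19 for Arsa and -0.77 for Glb1. Among proteases it was -1.30 for Ctsf, -0.89 for Ctsa and -0.63 for Tpp1, and among lipid hydrolases -1.19 for Smpd1, -1.13 for Lipa and -0.74 for Ppt1. Among membrane proteins and cofactors it was -1.39 for Laptm5, -1.31 for Npc1, 0.78 for Lamp2 and -1.22 for Grn. Lamp2 was the only one of the 37 that passed as higher in adipocytes, and it did not pass without a filter on low counts, without the adipocyte libraries HFD-402, HFD-403 or SW-408 or without the SVC libraries HFD-212 or SW-412. With each library left out in turn the 15 became 9 to 18. Arsb, Man2b1, Npc1, Gaa, Ctsf, Naglu, Grn and Arsa passed under all 22 alternatives. The SVC side of each difference rests on the libraries HFD-212 and HFD-411, which stood apart from each other. Smpd1 ranged from -1.75 to -0.73 and Laptm5 from -2.02 to -0.90 over 22 alternatives.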

How the results depend on the processing

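No direction past the threshold reversed among 5513 values of single genes under the alternatives. Of these, 5221 kept their side of the threshold, 209 lost the call and 83 gained it. Among the values that passed neither before nor after, 68 changed sign. The rise in HFD against LFD adipocytes held for 30 to 31 genes, and that in SW against LFD for 28 to 29, or 24 to 29 with single libraries left out. With upper-quartile scaling 2 genes, not 1, were lower in HFD and in HFD and SW against LFD adipocytes. DESeq2 called 9 genes higher and 4 lower between SW and HFD SVCs, 1 higher between adipocytes and SVCs in HFD mice, and 23 lower in the difference between fractions. With at least 10 counts in every library 4 genes were lower between SW and HFD SVCs, with only the 2 groups compared 2 were lower in adipocytes than SVCs of HFD mice, and without a filter 0 were higher in the difference between fractions (1 at an unadjusted p below 0.05 with the filter, where DESeq2 and limma-voom each called 1). The cause was not tested. With each library left out in turn, the counts ran from 1 to 2 lower in HFD against LFD, 7 to 17 lower in SW against HFD and 0 to 2 lower in HFD and SW against LFD adipocytes. They ran from 0 to 10 higher and 0 to 6 lower in SW against HFD SVCs, from 0 to 1 higher and 5 to 16 lower in adipocytes against SVCs of HFD mice, and from 0 to 1 higher and 9 to 18 lower in the difference between fractions. Over all genes, DESeq2 called 2473 higher and 2749 lower between SW and HFD SVCs, against 932 and 1917 with edgeR. Leaving out mitochondrial and hemoglobin genes, chosen after seeing the data, moved no count of members by over 1.5 times. RLE in place of TMM factors changed CPM by ratios of 0.98 to 1.05 within a fraction. No paired analysis was possible because the deposited columns carry numbers that are in no label. The values of SVCs rest on 1 LFD, 2 HFD and 3 SW libraries.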
